A study of Caenorhabditis elegans with 4 samples.

Results

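The middle of chromosome II carried 662 ZIM-1 peaks in Caenorhabditis elegans, out of 9439 peaks in the whole series and 1472 on that chromosome. They are the peaks of the series-wide list on II whose midpoint lies above 3 Mb and at most at 12.279 Mb of WormBase release WS220, the build named in the file headers. The interval holds 60.7% of chromosome II and 9.25% of the nuclear sequence, each chromosome being measured up to where its final peak ended in any of the lists, and 7.02% of the nuclear peaks. It was set by position alone. The same interval held 375 of the 5552 peaks of replicate 1 and 224 of the 2887 peaks of replicate 2.

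ZIM-1 is a C2H2 zinc finger protein of the nematode germline. It binds pairing centers on chromosomes II and III, stretches near a chromosome end where homologs recognise each other in meiosis before synapsis, and links them to the nuclear envelope. The pairing center of II lies toward its left end, and the interval described here is the part of II away from both ends. Worm autosomes are known for a gene-rich and recombination-poor center, but its borders were not used to set the interval. Below, the center of II means this interval.

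The ZIM-1 ChIP group had 2 replicates, made with an affinity-purified rabbit polyclonal antibody against ZIM-1, and the input group had 2 replicates of genomic DNA without immunoprecipitation. Animals of both groups were hermaphrodites of genotype fem-2(b245)III, kept at 20 °C and labelled as young adults with a germline; fem-2 is a gene of the sex determination pathway. The growth protocol speaks of gravid adults, so the stage is given in these 2 ways. Whole frozen worms were ground and then fixed, and binding in germ cells and in somatic cells cannot be told apart in such extracts. The values below come from the peak lists of the ChIP group. Read depth is unknown for every library, and the labels leave unsaid if separate cultures gave the replicates.

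Of the 662 central II peaks, 192 overlapped a peak of both replicates by at least 1 bp, a share of 29.0% (95% exact Clopper-Pearson interval 25.6 to 32.6), where 25.9% of the whole series-wide list did. A further 191 were found in replicate 1 alone (28.9%, 25.4 to 32.5), against 33.2% in the whole list. Replicate 2 alone held 36 (5.44%, 3.84 to 7.45), against 5.35% in the whole list. The remaining 243 were in neither replicate (36.7%, 33.0 to 40.5), against 35.6% in the whole list. The intervals for both, for replicate 2 alone and for neither held the share of the whole list. That for replicate 1 alone lay below it, a difference that was not tested. More central II peaks had a partner in replicate 1 (383, or 57.9%, against 59.1% of the whole list) than in replicate 2 (228, or 34.4%, against 31.2%), which has fewer peaks.

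Read the other way, 193 of the 375 central peaks of replicate 1 had a partner in replicate 2, or 51.5% (46.3 to 56.6), where 43.9% of the full replicate 1 list did. That interval lay above the share of the full list, and the difference was not tested. Of the 224 central peaks of replicate 2, 193 had a partner in replicate 1, or 86.2% (80.9 to 90.4), where 84.1% of the full replicate 2 list did. A series-wide counterpart was present for 353 of the central replicate 1 peaks (94.1%, where 95.3% of the full list had one) and for 221 of the central replicate 2 peaks (98.7%, where 98.3% of the full list had one). Measured in bases, 72.0% of the 301.5 kb covered by the members lay inside replicate 1 peaks and 45.8% inside replicate 2 peaks.

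The score is the authors' own value for each peak, of a quantity that the headers do not name, so it ranks peaks within a list only. Among the members it ran from 1.33 to 174.44, the highest value of the series-wide list, with a median of 7.86. Members found in both replicates had a median score of 30.7 and a median width of 558 bp. Members found in replicate 1 alone had 7.62 and 318 bp, those in replicate 2 alone 7.84 and 336.5 bp, and those in neither replicate 4.69 and 199 bp. Peaks found in both were therefore the higher and wider ones, but the range of their scores, from 3.61 upward, overlapped that of the peaks in neither, which reached 16.79.

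**Figure D1:**
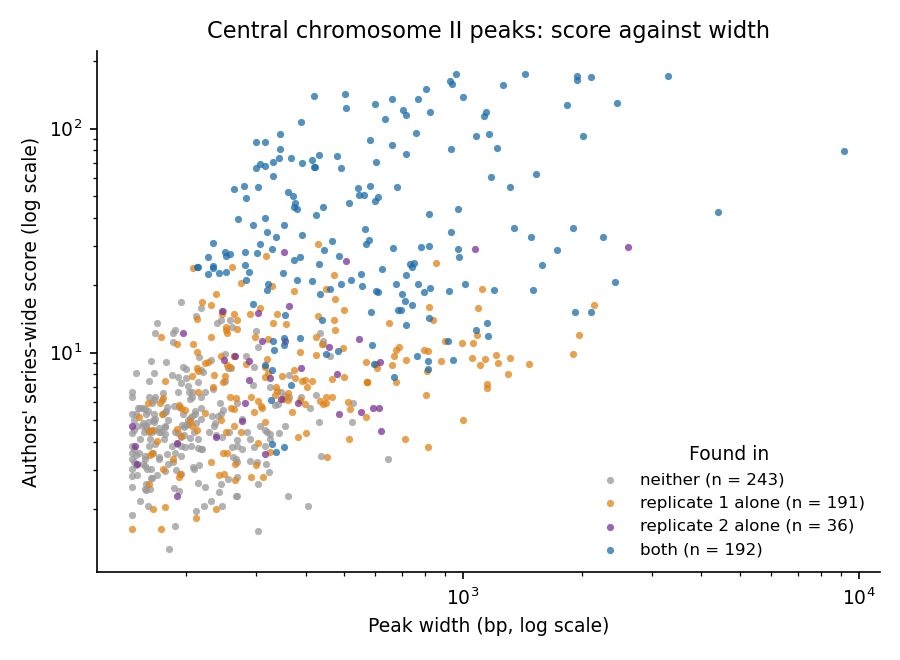
Score against width for the 662 central II peaks of the series-wide list, both on log scales, coloured by the replicate lists in which an overlapping peak was found. Peaks found in both replicates fill the upper right and peaks found in neither the lower left, and a band of peaks over 1000 bp wide found in replicate 1 alone stays at scores between 6.97 and 19.13.

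Recovery in the replicates followed the score closely. The series-wide list may rest on the same ChIP reads as the replicate lists. The shares below are therefore descriptions, not an independent check of the peaks. Members of higher score also tended to be wider (Spearman rho of 0.62 across the 662 members), and a wide peak meets the 1 bp overlap more easily. These influences on recovery were not separated. When the whole series-wide list was divided into 10 deciles by score, all 60 central II peaks of the highest decile were found in both replicates (exact interval 94.0 to 100%), as were 99.9% of the other nuclear peaks of that decile. In decile 9, 88% of 75 central II peaks were found in both (78.4 to 94.4), against 86.7% of the other nuclear peaks (84.3 to 88.9). In decile 8, with scores from 14.15 to 23.41, the share was 59.1% of 66 central II peaks (46.3 to 71.0) and 42.6% of 874 other peaks (39.3 to 45.9). That was the widest gap of the 10 deciles, and the only one in which the intervals of both shares did not overlap; the difference was not tested. In deciles 1 to 5 at most 4.48% of the central II peaks were found in both.

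**Figure D2:**
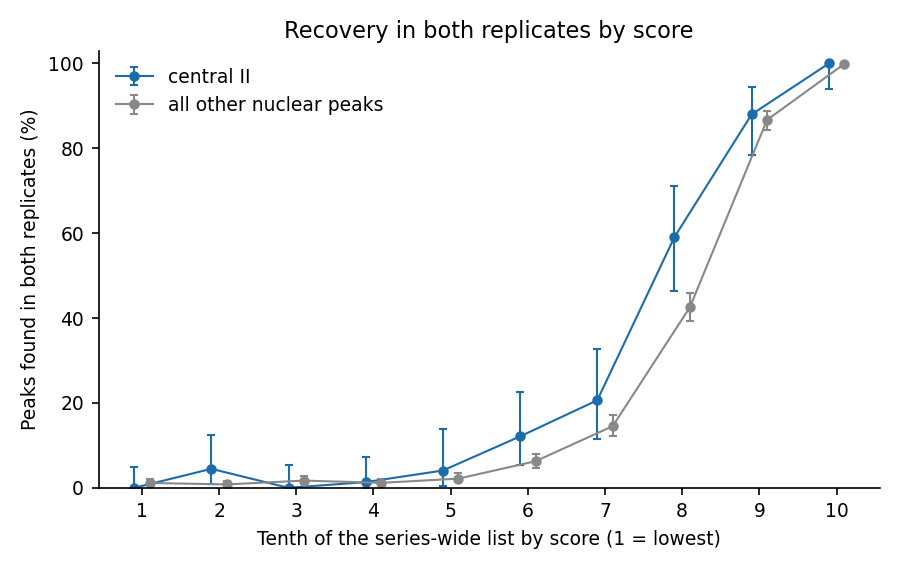
Percentage of series-wide peaks with a partner in both replicates, by decile of the series-wide score, for central II and for all other nuclear peaks. Points are shares and bars their 95% exact intervals; both curves stay under 5% up to decile 5, and reach 100% for central II and 99.9% for the other peaks in decile 10.

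The strongest sites of the interval were examined one by one. Central II held 2 of the 78 peaks that share the top series-wide score (0.826% of the whole list). The wider of them spanned 4683743 to 4685176 (1434 bp), and the other 3365301 to 3366262 (962 bp). Each met a peak of score 3100 in replicate 1 and a peak of score 3100 in replicate 2, a value at which many peaks of those lists are tied and the highest seen in the interval. The replicate peaks had much the same extent, 1457 bp in replicate 1 and 1316 bp in replicate 2 at the first site, and 1033 bp in replicate 1 and 1060 bp in replicate 2 at the second.

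Next came 4 sites that also had 3100 in both replicates. They lay from 4553846 to 4555784 with a score of 171.83, from 9631668 to 9634967 with 171.75, from 8459498 to 8461600 with 169.19, and from 9201575 to 9203511 with 164.97. The second of these was the widest of the strong sites, at 3300 bp in the series-wide list, 3175 bp in replicate 1 and 3403 bp in replicate 2. Another site at 3100 in both, from 4259916 to 4261750, had a series-wide score of only 127. Sites tied at 3100 in both replicates thus had unlike series-wide scores.

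Below the tied score, replicate scores of the leading sites are given as listed, and the scales of the lists may differ. Over the 198 overlapping pairs of central II the median score was 337.28 in replicate 1 and 210.28 in replicate 2. The site from 11096999 to 11097927 (series-wide score 163.15) had 2079.57 in replicate 1 and 1775.49 in replicate 2. The site from 7151650 to 7152587 (157.68) had 1647.78 in replicate 1 and 1373.44 in replicate 2. The site from 10174290 to 10174793 (142.92) had 1874.2 in replicate 1 and 2519.92 in replicate 2. The site from 9891663 to 9892925 (155.73) had 2592.29 in replicate 2 and 1761.22 in replicate 1, there for the higher of 2 peaks. Listed values were furthest apart, among the 20 highest-scoring members, at the site from 10933326 to 10935766 (129.48), where the peaks had unlike extents. Replicate 1 had 1 peak of 2480 bp there with 2575.89. Replicate 2 had 2 peaks there, the higher of them 651 bp wide with 847.09. Strong sites could be narrow: the site from 11345459 to 11345877 was 419 bp wide with a score of 140.26, and the site from 11777865 to 11778370 was 506 bp wide with 124.15.

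The 20 highest-scoring members had scores from 121.66 to 174.44 (median 146.8) and widths from 419 to 3300 bp (median 950 bp). All 20 were found in both replicates. Their replicate 1 scores ran from 906.16 to 3100 and their replicate 2 scores from 691.19 to 3100. They were spread over the interval, with 9 of them left of its middle and 11 right of it, and 5 between 4 and 5 Mb, more than in any other Mb. The steps from 5 to 6 Mb and from 12 to 12.279 Mb held 0 of them.

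Width and score told partly different things. Across the 662 members they gave a Spearman rho of 0.62, a description across peaks of 1 list. The widest member ran from 3159401 to 3168577, 9177 bp, with a score of 79.09, and both replicates gave it as a single peak of score 3100, which spanned 9212 bp in replicate 1 and 9231 bp in replicate 2. The 3 lists placed its start within 1 bp and its end within 54 bp. The next widest, from 8288313 to 8292722 (4410 bp), had a series-wide score of 42.52, with 1777.82 in replicate 1 and 3100 in replicate 2.

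Of the members, 54 were at least 1000 bp wide, a share of 8.16% (6.19 to 10.5), where 8.72% of the whole list was that wide. Both replicates held 35 of these, or 64.8% (50.6 to 77.3), with a median score of 60.7, where 71% of peaks that wide in the whole list were found in both. Replicate 1 alone held 17, or 31.5% (19.5 to 45.6), with a median of 9.47, where it held 24.4% in the whole list. Replicate 2 alone held 2 (3.28% in the whole list), and 0 were without a partner in either (1.34% in the whole list). At the other end, 156 members were under 200 bp wide, of which 0 were found in both (exact interval up to 2.34%), where 0.847% were in the whole list. Of these narrow members 123 were in neither replicate, or 78.8% (71.6 to 85.0), where 75.4% were in the whole list. Both width classes were thus close to the background of the list. Overlap by 1 bp is easier to reach for a wide peak than for a narrow one.

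Some wide peaks of high score were called in a single replicate. In replicate 2 a peak from 4641112 to 4645136, 4025 bp wide and at the tied score of 3100, had no overlapping peak in replicate 1. It corresponded to 2 neighbouring members, one from 4641169 to 4642238 with a score of 28.92 and one from 4642385 to 4644986 with 29.57, the highest scores of any member found in replicate 2 alone. It was the single central peak among the highest-scoring 10% of the replicate 2 list with no partner. The following 4 central replicate 2 peaks with no partner had scores of 202.8 to 373.61 and were 371, 946, 1182 and 453 bp wide, so they were narrower and scored far lower.

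Replicate 1 showed the counterpart at other places. Its highest-scoring central peak with no partner in replicate 2 lay from 3226532 to 3228617 (2086 bp) with a score of 1198.7. The following 4 lay from 3939389 to 3941731 with 889.16, from 7502345 to 7504649 with 888.81, from 6795676 to 6797758 with 837.83 and from 7079076 to 7081122 with 757.48. All 5 were over 2 kb wide, while the median width of the 182 central replicate 1 peaks with no partner was 430.5 bp and their median score 91.9. The members over these 5 peaks reached series-wide scores of 9.86 to 16.38 at most, far below the 121.66 of the 20 strongest. Of the central replicate 1 peaks at least 2000 bp wide, 10 were found in replicate 2 and 8 were not, a share without a partner of 44.4% (21.5 to 69.2), where 19.1% of the replicate 1 peaks that wide in the whole list had none. These 18 peaks are few, and the difference was not tested.

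By series-wide score, the highest member found in replicate 1 alone lay from 3266337 to 3266765 with 30.38, where replicate 1 had 239.18. It was followed by members from 3518415 to 3518732 with 26.89, from 5349764 to 5350618 with 25.19, from 3513710 to 3513970 with 24.07 and from 8890040 to 8890247 with 23.92. After the pair at 4.64 Mb, replicate 2 alone held members from 9938830 to 9939181 with 28.21, from 10335902 to 10336406 with 25.54 and from 8877414 to 8877776 with 16.15.

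Among members in neither replicate, the highest scores were 16.79 at 4262478 to 4262671, 15.82 at 11782510 to 11782727, 15.35 at 11963234 to 11963480, 14.55 at 9213051 to 9213261 and 13.96 at 12230788 to 12231044. These 5 were 194 to 257 bp wide, and the first lay 727 bp after the strong site that starts at 4259916. Of all 243 members in neither replicate, 83 (34.2%) lay within 1 kb of a replicate peak and 63 (25.9%) more than 10 kb from any. The same distances were not computed for the rest of the list, so these shares cannot be called particular to central II.

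Where replicate peaks overlapped, their scores were compared across 198 pairs. Spearman's rho was 0.58 and Pearson's r of the log10 scores was 0.66, against 0.68 and 0.70 over 2349 pairs elsewhere in the nuclear genome. Among pairs with both scores below 3100, rho was 0.52 over 188 pairs of central II and 0.61 over 2046 pairs elsewhere. These are descriptions across peaks of the same 2 libraries, not over independent samples. The midpoints of the pairs differed by 39 bp in the median, and the median widths were 608 bp in replicate 1 and 567.5 bp in replicate 2. Over the 170 pairs in which each peak covered 50% or more of the other, rho was 0.78, and over the remaining 28 pairs it was -0.20. The median width of the peaks in these 28 pairs was 1202 bp in replicate 1 and 544 bp in replicate 2.

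Some pairs whose scores ranked unlike in their lists, chosen after their values were seen, were of this kind. A replicate 1 peak from 5346434 to 5349784 (3351 bp) had a score of 2154.93, and the replicate 2 peak over its first bases, from 5346427 to 5346763 (337 bp), had 56.21. In the other direction a replicate 2 peak from 12053956 to 12055449 (1494 bp) had 747.63, and the replicate 1 peak at its edge, from 12055386 to 12055701 (316 bp), had 56.63. In a pair with closely matching extent, the replicate 1 peak from 6185194 to 6186528 had the tied score of 3100. Its partner had 540.19, below the tied score of its own list. Of the 9 pairs at 3100 in replicate 1 and the 9 in replicate 2, 8 were at 3100 in both.

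**Figure D3:**
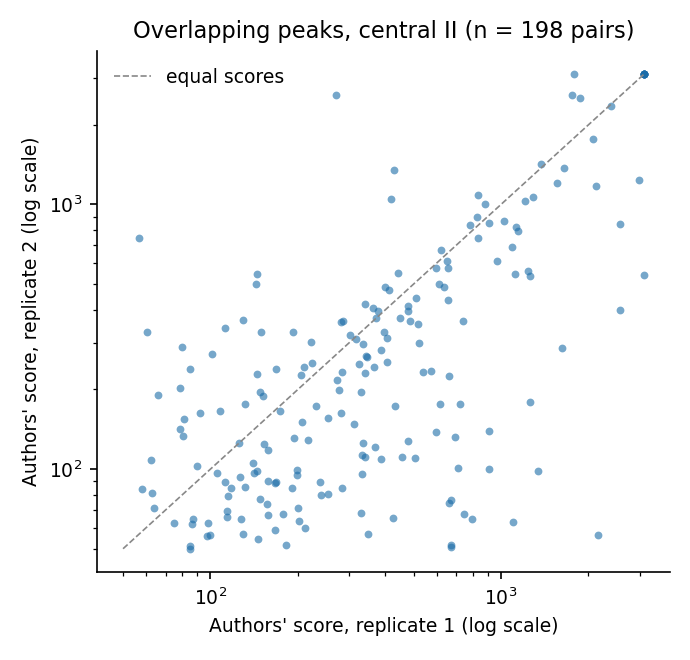
Scores of 198 pairs of overlapping peaks in central II, both axes on log scales, with replicate 1 horizontal and replicate 2 vertical. The dashed line marks equal values, though the lists need not share a scale. The 8 pairs at 3100 in both lists coincide at the upper right, and the rest scatter on both sides of the line, with a Spearman rho of 0.58 over all pairs.

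Within the interval the peaks were uneven. From 3 to 7.64 Mb there were 284 members, or 61.2 per Mb (95% Poisson interval 54.3 to 68.8), and from 7.64 to 12.279 Mb there were 378, or 81.5 per Mb (73.5 to 90.1). Replicate 1 had 175 peaks left and 200 right of the same point, and replicate 2 had 90 and 134. Each list thus placed more peaks in the right part. By steps of 1 Mb, the series-wide count was lowest from 5 to 6 Mb and from 7 to 8 Mb, with 47 each, and highest from 11 to 12 Mb, with 111. The share found in both replicates was 26.1% in that densest step and 34.8% from 6 to 7 Mb, the highest of the steps.

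Windows of 100 kb showed the clusters. The 92 full windows held 0 to 22 members, with a median of 6, and their variance was 3.38 times their mean; for a Poisson process this ratio is near 1. In replicate 1 it was 1.92 and in replicate 2 it was 1.65. The fullest windows were those from 10.5 to 10.6 Mb and from 11.1 to 11.2 Mb, with 22 members each, followed by 11.9 to 12 Mb with 21, 12 to 12.1 Mb with 18 and 9.6 to 9.7 Mb with 17. The window from 12 to 12.1 Mb had 9 peaks in each replicate list and 7 members found in both, whereas that from 11.1 to 11.2 Mb had 11 peaks in replicate 1 and 3 in replicate 2. Over the 92 windows the counts of both replicates correlated with rho = 0.76 (Spearman) and r = 0.71 (Pearson), a description over windows that share 2 libraries and the same sequence.

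**Figure D4:**
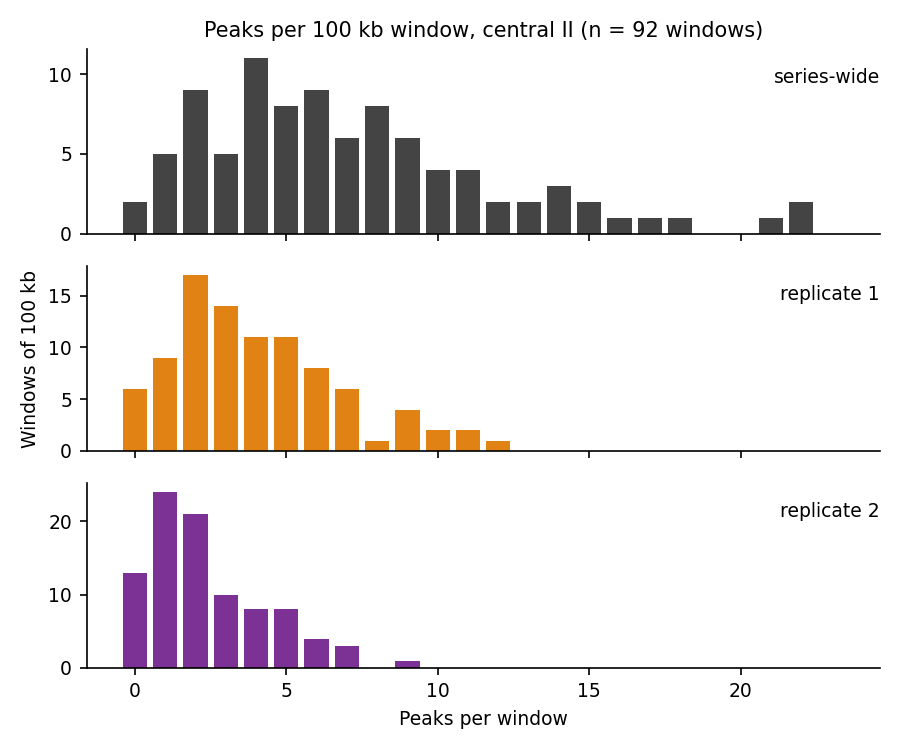
Number of 100 kb windows of central II (92 full windows) by the number of peaks they held, for the series-wide list, replicate 1 and replicate 2. The series-wide counts reach 22, those of replicate 1 reach 12 and those of replicate 2 reach 9, and 2, 6 and 13 windows held 0 peaks in these lists.

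Neighbouring members were often close. The median distance from the end of a member to the start of the next was 3749 bp, and 225 of 661 distances were at most 1 kb, a share of 34.0% (30.4 to 37.8), where 37% of all distances in the list were. In replicate 1 the share was 21.4% of 374 distances and in replicate 2 it was 12.1% of 223. The longest run of members at most 1 kb apart held 12 peaks from 10541641 to 10549045, and its scores were low, from 1.63 to 12.55. Both replicates held 1 of these 12 peaks, replicate 1 alone 6 and replicate 2 alone 2, and 3 had no partner. Several members could also overlap 1 replicate peak. Of the 375 central replicate 1 peaks 30, and of the 224 central replicate 2 peaks 12, each overlapped 2 or more members by at least 1 bp. The most, 5, lay under the replicate 1 peak from 3466235 to 3468974, whose score was 195.76. This count was not made over the full replicate lists, so it cannot be called particular to the interval.

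Long stretches held no member. The widest ran from 10658985 to 10832028 (173.0 kb). The following ran from 7517915 to 7669468 (151.6 kb), from 3602789 to 3754323 (151.5 kb), from 5845559 to 5980967 (135.4 kb) and from 5390281 to 5501028 (110.7 kb). No replicate peak had its midpoint there, which follows largely from the choice of stretches, since only 22 central peaks of replicate 1 and 3 of replicate 2 lacked a series-wide counterpart. Of the distances between neighbouring members 7 were at least 100 kb. In replicate 1 there were 16 such distances, the longest of 240.3 kb, and in replicate 2 there were 27, the longest of 456.0 kb. The 5 named stretches contain both windows with 0 members, from 5.4 to 5.5 Mb and from 10.7 to 10.8 Mb.

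The center of II was sparser than its ends. It had 71.3 peaks per Mb (66.0 to 77.0), the left end up to 3 Mb had 153.3 (139.6 to 168.0), and the right end beyond 12.279 Mb had 116.7 (104.8 to 129.5). The center had 0.53 times the density of both ends together (exact interval 0.48 to 0.59). In replicate 1 the ratio was 0.47 (0.41 to 0.53) and in replicate 2 it was 0.52 (0.44 to 0.63). The intervals cover counting error only and treat peaks as independent although they cluster, and with 2 replicate lists no test of the difference over samples was made; the ratio was under 1 in both. Members covered 3.25% of the bases of the center, against 8.41% at the left end and 5.63% at the right end.

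The gap between the center and the left end was wider for strong peaks than for peaks in general. The highest-scoring 10% of the series-wide list (9.96% of it, with ties) held 60 central II peaks, or 9.06% of the members (6.99 to 11.5), against 91 of the 460 peaks at the left end (19.8%, 16.2 to 23.7) and 33 of the 350 at the right end (9.43%, 6.58 to 13.0). Per Mb this made 6.47 in the center, 30.3 at the left end and 11.0 at the right end. The density ratio of the center to the left end was 0.21 (0.15 to 0.30) for these strong peaks and 0.47 (0.41 to 0.53) for all peaks; the difference between the ratios was not tested. At the tied highest score there were 2 of 662 peaks in the center, 9 of 460 at the left end and 3 of 350 at the right end. In the whole list 0.826% of peaks had that score. The median series-wide score was 7.86 in the center, 11.31 at the left end and 7.57 at the right end.

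The center of II was also set beside those of III, IV and V, taken as the sequence more than 3 Mb from both ends. Central II had 71.3 peaks per Mb, central V 69.7 (65.5 to 74.1), central IV 88.6 (83.2 to 94.2) and central III 104.6 (97.5 to 112.0). In replicate 1 central II had 40.4 peaks per Mb, central V 42.0, central IV 54.3 and central III 53.3. In replicate 2 central II had 24.1, central V 21.6, central IV 26.2 and central III 32.1. The ratio of central II to central III, the other chromosome whose pairing center ZIM-1 binds, was 0.68 (0.61 to 0.76) in the series-wide list, 0.76 (0.66 to 0.87) in replicate 1 and 0.75 (0.62 to 0.90) in replicate 2. Against central IV it was 0.81 (0.73 to 0.89) in the series-wide list, 0.74 (0.65 to 0.85) in replicate 1 and 0.92 (0.77 to 1.10) in replicate 2, so the difference from IV lay within counting error in replicate 2. No test over samples was made of these differences either.

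**Figure D5:**
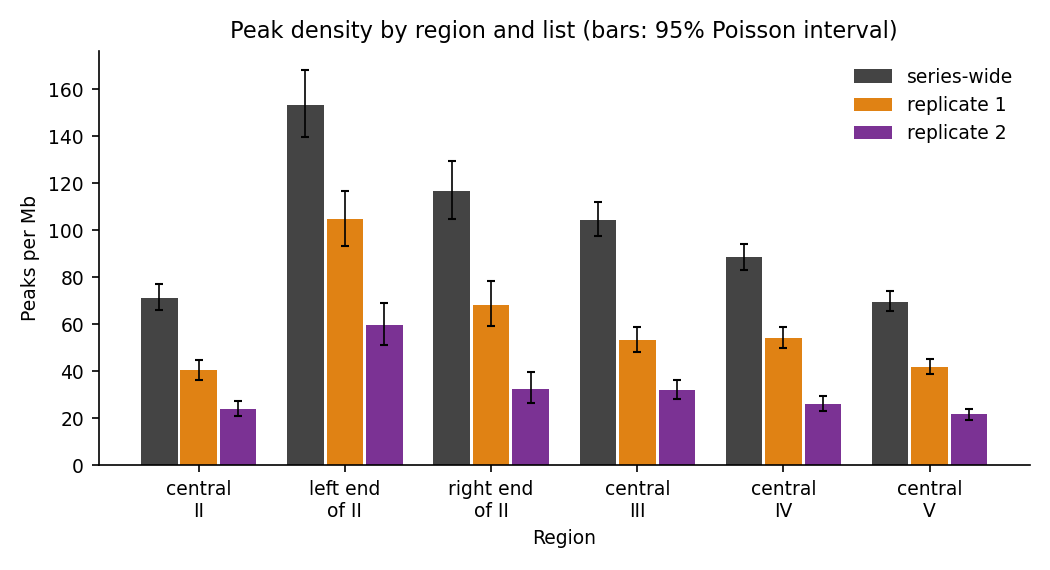
Peaks per Mb in the center of II, its ends and the centers of III, IV and V, for the series-wide list and each replicate list; error bars are 95% Poisson intervals for counting error. In all lists the center of II lies below both of its own ends and below the centers of III and IV; it lies above the center of V in the series-wide list and replicate 2, and below it in replicate 1.

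The share found in both replicates was 29.0% in central II, 27.3% in central III (24.2 to 30.5), 23.8% in central IV (21.2 to 26.5) and 26.2% in central V (23.5 to 28.9). Counted per Mb, peaks found in both numbered 20.7 in central II, 28.5 in central III, 21.1 in central IV and 18.2 in central V. Widths were alike, with medians of 299.5 bp in central II, 283 bp in III, 299.5 bp in IV and 300.5 bp in V. At the tied highest score central II had 2 of 662 peaks, central III 0 of 814, central IV 14 of 1018 and central V 17 of 1040. In the whole list 0.826% of peaks had that score.

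The peaks next to the edges of the interval had scores under 20. The first member ran from 3014195 to 3014447 with a score of 12.17, and the nearest peak left of it, outside the interval, from 2987043 to 2987692 with 13.05. The last member ran from 12233281 to 12233731 with 19.29, and the nearest peak to its right from 12279174 to 12279333 with 5.01.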

How the data were processed

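ZIM-1 ChIP was sequenced in 2 libraries and input DNA in 2. The data used were 3 peak lists, 1 per ChIP replicate and 1 for the series, all on WS220, per the file headers. BWA and the build ce10 are named in the submitters' processing notes, and the source columns name MACS for the replicate lists and MACS v2 for the series-wide list. Each peak has 1 deposited score from the authors' peak caller. The quantity behind it, the control, the settings and any pooling of reads for the series-wide list are not given in the sources used here. The input libraries entered with no values.

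Peaks were assigned by midpoint, and overlaps, widths, distances and densities were computed with Python 3.11.15, numpy 2.4.6, pandas 2.3.3 and scipy 1.17.1. Shares have exact Clopper-Pearson intervals, densities Poisson intervals and their ratios exact conditional intervals, all at 95% and for counting error only. The overlap step was checked on shifted copies of the members. The ratio interval was checked on simulated Poisson counts, which do not cluster as these peaks do. No test over samples was made; values of both replicate lists are given in its place. Named sites were the 20 highest-scoring members, the 5 widest, the 5 highest-scoring of each class of recovery, the 5 fullest and all empty windows, the 5 widest gaps and the edge peaks. The interval, the named sites and the lists of comparisons were chosen with earlier results of these data known. Results were recomputed with other end sizes, the higher-scoring 50% of a list, a 50% overlap of both peaks, each replicate list alone, peaks found in both and covered bases. Genes and sequence at the peaks were not analysed here, since the gene table used is of WBcel235, another build.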

Additional observations from a re-analysis of the deposited data

How the results depend on the processing

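No paired analysis was possible because only the ChIP group had peak lists here, and input values with matching numbers were not used. The share found in both replicates stayed within its interval under all 4 alternatives, from 25.8% to 29.9%. One of these, the higher-scoring 50%, cut the series-wide list and both replicate lists together (26.1%). It therefore does not show how the share depends on score. Against the full replicate lists the share was 12.1% of central II peaks in decile 6 and 100% in decile 10. The share found in a replicate, 63.3% with both lists, was 34.4% and 57.9% with 1 replicate list left out, by construction. The density of the center of II over its ends stayed below 1 throughout: it was 0.47 to 0.52 in the single replicate lists, 0.46 in the higher-scoring 50% of the list, 0.58 with ends of 2 Mb, 0.53 with ends of 4 Mb and 0.46 for covered bases. Over the centers of III, IV and V together it was 0.85, from 0.83 to 0.94 in the single replicate lists, 0.89 in the higher-scoring 50% and 0.96 among peaks found in both. The intervals included 1 in replicate 2 alone (0.81 to 1.10), in the higher-scoring 50% (0.79 to 1.003) and among peaks found in both (0.82 to 1.13). The score correlation of 0.58 was 0.78 under the stricter overlap and 0.52 among pairs with both scores below 3100. The share of members within 1 kb of the next, 34.0%, was 12.1% to 21.4% in the single replicate lists and 18.2% among the higher-scoring 50%, sets that hold fewer peaks. Because depth is unknown, the absence of a peak from a list cannot be read as absence of binding.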

Other observations

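Replicate peaks of central II with no series-wide counterpart numbered 22 in replicate 1 and 3 in replicate 2. A single site was called in both replicates and was still absent from the series-wide list. It lay from 6296659 to 6297121 with a score of 157.4 in replicate 1, and from 6296616 to 6297219 with 118.22 in replicate 2. The highest-scoring replicate 1 peak of this kind, from 11229417 to 11229920 with 181.93, had no partner in replicate 2. The next of replicate 1 were from 7123605 to 7124013 with 97.86, from 3351670 to 3351984 with 75.75 and from 10302028 to 10302469 with 72.0. The other two of replicate 2 were from 6344547 to 6345077 with 56.1 and from 9823959 to 9824447 with 51.6.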
